A study of Mus musculus with 6 samples.

Results

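The cadherins are calcium-dependent adhesion molecules of the cell surface, and this account covers every array probe whose gene symbol was Cdh followed by digits or began with Pcdh. The rule found 96 probes for 60 gene symbols among 31769 gene probes and 17888 symbols. They fell into 29 probes of 17 classical cadherins, 11 probes of 5 atypical cadherins, 30 probes of 25 clustered protocadherins and 22 probes of 11 non-clustered protocadherins. The remaining 4 probes carried the older symbols Pcdh24 and Cdh29, now Cdhr2 and Cdhr4, and were kept apart as cadherin-related. The rule used no measured value.

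RNA came from the ventral midbrain of mouse embryos at E14.5, from Pitx3-/- embryos and from Pitx3+/+ embryos. Pitx3 is a homeobox transcription factor of the midbrain dopaminergic neurons. There were 3 mutant samples, each a pool of 3 midbrains, and each was hybridised on 2 spotted arrays of long oligonucleotides with the Cy3 and Cy5 dyes exchanged. Every array carried, in its other channel, the same reference RNA, 1 preparation from 10 wild-type midbrains, so the spread between control animals was not measured and a ratio against this reference leaves it out. The labels give no allele, strain or sex of the embryos, and the values of single embryos are lost in the pools. The tissue is a mixture of neurons, progenitors, vessels and other cells, and in such a sample fewer cells of a type and less RNA per cell cannot be told apart.

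Classical cadherins join like cells through their outermost extracellular repeat and hold on to the actin cytoskeleton through catenins bound to their tails. Type I members such as N-cadherin give strong adhesion, while type II members are expressed in patches that mark nuclei and axon tracts of the developing brain. Clustered protocadherins are encoded in tandem alpha, beta and gamma arrays on mouse chromosome 18, and each neuron uses its own combination of them, which serves self-recognition of its neurites. Non-clustered protocadherins of the delta-1 and delta-2 groups are scattered over the genome, adhere weakly and bind partners that steer actin and cell movement.

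Signals on these arrays were low for most probes. The median spot signal of an array lay between 70.6 and 77.5 in Cy5 over local backgrounds of 58.7 to 62.0, and between 46.2 and 50.4 in Cy3 over 38.3 to 41.3. The probe for Pitx3 was above background on no array, so it does not check the genotype. The labelled tissue was checked with 11 markers of midbrain dopaminergic neurons, of which 9 were above background on all 6 arrays. Slc18a2, the vesicular transporter for dopamine, had log2 ratios of -0.36, -0.37 and -0.32 in pools 1, 2 and 3, and the midbrain homeobox gene En2 had 0.79, 0.89 and 0.67. At an unadjusted p under 0.05 4 of the 11 markers were higher (En2, En1, Foxa2 and Lmx1b), or 36.4%, beside 2.66% of all probes. Another 4 were lower (Slc18a2, Slc6a3, Aldh1a1 and Nr4a2), or 36.4%, beside 2.43%. Of these, Lmx1b was above background on no array. Slc6a3 and Aldh1a1 were above background in the reference channel only, on 2 and 6 arrays. Th, the enzyme of the first step of dopamine synthesis, stood at 0.03, -0.21 and -0.23. Over all 31769 probes 0 passed an adjusted p under 0.05 (limma with Benjamini-Hochberg adjustment), and the lowest adjusted p was 0.357. At an unadjusted p under 0.05 stood 1617 probes.

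A probe was taken as above background in a channel where its signal was more than 2 background SDs over the mean of the local background. By that measure 33 of the 96 cadherin and protocadherin probes were above background in at least 1 channel on all 6 arrays, which is 34.4%, against 43.7% of all gene probes. Another 15 were so on some arrays and 48 on none, beside 5251 and 12636 of all 31769 gene probes. The share was 31.0% for classical cadherins, 9.09% for atypical cadherins, 36.7% for clustered protocadherins, and 11 of the 22 non-clustered probes were above background. Non-clustered protocadherins thus had the largest share with a signal, the only class above the share of all probes, and atypical cadherins the smallest. Counted by gene, 28 of 60 had a probe above background on all 6 arrays, beside 9475 of all 17888 symbols. Another 23 had none above background on any array, beside 5603 of all symbols. In the mutant channel alone 31 probes were above background on all 6 arrays, and in the reference channel 33. Over all 31769 gene probes these were 13019 and 13357.

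**Figure D1:**
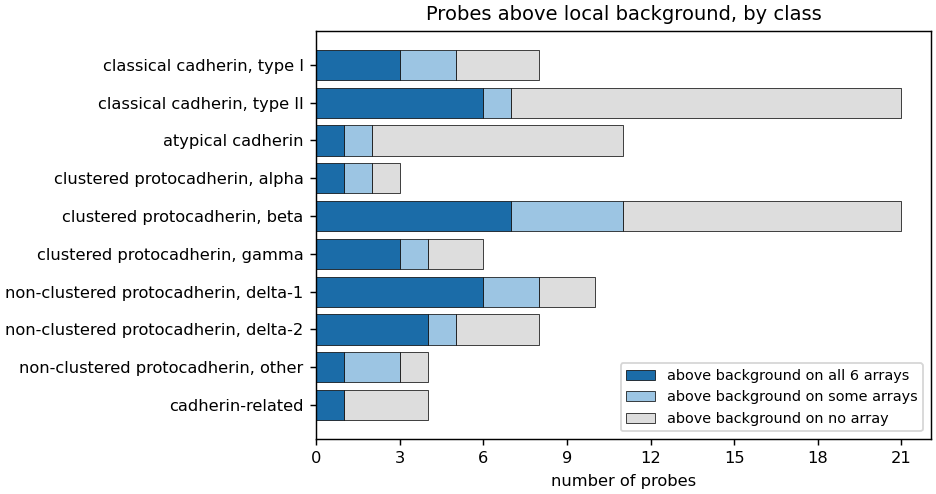
Number of probes (x axis) of each class or subgroup (y axis), divided into probes above local background in a channel on all 6 arrays, on some arrays and on none. Non-clustered protocadherins have 11 of 22 probes above background on all 6 arrays, classical cadherins 9 of 29, and the type II classical cadherins have 14 of 21 on no array.

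Among type I classical cadherins Cdh3, Cdh4 and Cdh15 had a probe above background on all 6 arrays. They encode P-cadherin, R-cadherin and M-cadherin, the last of which is known from muscle. Cdh1, the epithelial E-cadherin, was above background on 5 arrays. Both probes of Cdh2, the N-cadherin of neural tissue, were above background on no array, with raw signals from 37.7 to 64.7, and their ratios carry no measure of its level. Among type II members Cdh5, Cdh8, Cdh9, Cdh10, Cdh11 and Cdh19 were above background on all 6 arrays, and Cdh7 was above background on 2. Cdh6, Cdh12, Cdh18, Cdh20 and Cdh24 were above background on none.

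Among atypical cadherins only Cdh13 was above background on all 6 arrays. It encodes T-cadherin, which has no cytoplasmic tail and is held to the membrane by a lipid anchor. Cdh26 was above background on 4 arrays, and Cdh16, Cdh17 and Cdh23 on none. Among clustered protocadherins the alpha member Pcdha6 was above background on all 6 arrays, as were the beta members Pcdhb3, Pcdhb7, Pcdhb12, Pcdhb15, Pcdhb19, Pcdhb21 and Pcdhb22 and the gamma members Pcdhga2 and Pcdhga11. A further 10 beta genes were above background on no array. Non-clustered members above background on all 6 arrays were Pcdh7, Pcdh9 and Pcdh11x of the delta-1 group, Pcdh8, Pcdh18 and Pcdh19 of the delta-2 group, and Pcdh15, which is known from the hair cells of the inner ear. Pcdh1, Pcdh17 and Pcdh20 were above background on none. Cdh22 and Pcdh10 were not analysed here.

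The design addresses which transcripts differ in level in this tissue where Pitx3 is missing. Ratios are given as log2 of mutant over reference, averaged over the 2 dye-swapped arrays of a pool, with mean ± SD over the 3 pools (n = 3). None of the 96 probes passed the adjusted threshold, where 0% of all probes passed, and the lowest adjusted p among them was 0.885 by limma. At an unadjusted p under 0.05 stood 5 of the 96, or 5.21%, beside 5.09% of all probes. Of these, 2 were higher in the mutant (background 2.66%) and 3 were lower (background 2.43%), so the share of cadherins and protocadherins at this limit was near that of the whole array. They were Cdh13, Cdh8, Pcdhb3, 1 probe of Pcdh19 and 1 dim probe of Cdh19. Among the 33 probes above background on all 6 arrays 4 stood there, or 12.1%, beside 9.93% of all such probes.

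The ratios of most of these genes lay close to 0, as did those of all probes above background. The median size of the ratio, without regard to sign, was 0.0167 for the 33 probes and 0.0177 for all such probes. Of the 33 probes, 31 had a 95% confidence interval of the mean ratio that stayed within 0.25 of 0 on either side, a count not made for all probes. The exceptions were Cdh13 and Pcdhga2, which were also the only ones with a mean beyond 0.1 in size, or 6.06% of the 33, beside 2.73% of all probes above background. The ratio had the same sign in all 3 pools and was higher for 2 of the 33 (6.06%, background 12.7%), and lower for 3 (9.09%, background 13.1%). Over all 96 probes 4 were higher in the 3 pools (background 13.6%) and 17 lower (background 12.5%). Among the 17, most were probes without a signal above background on all arrays.

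**Figure D2:**
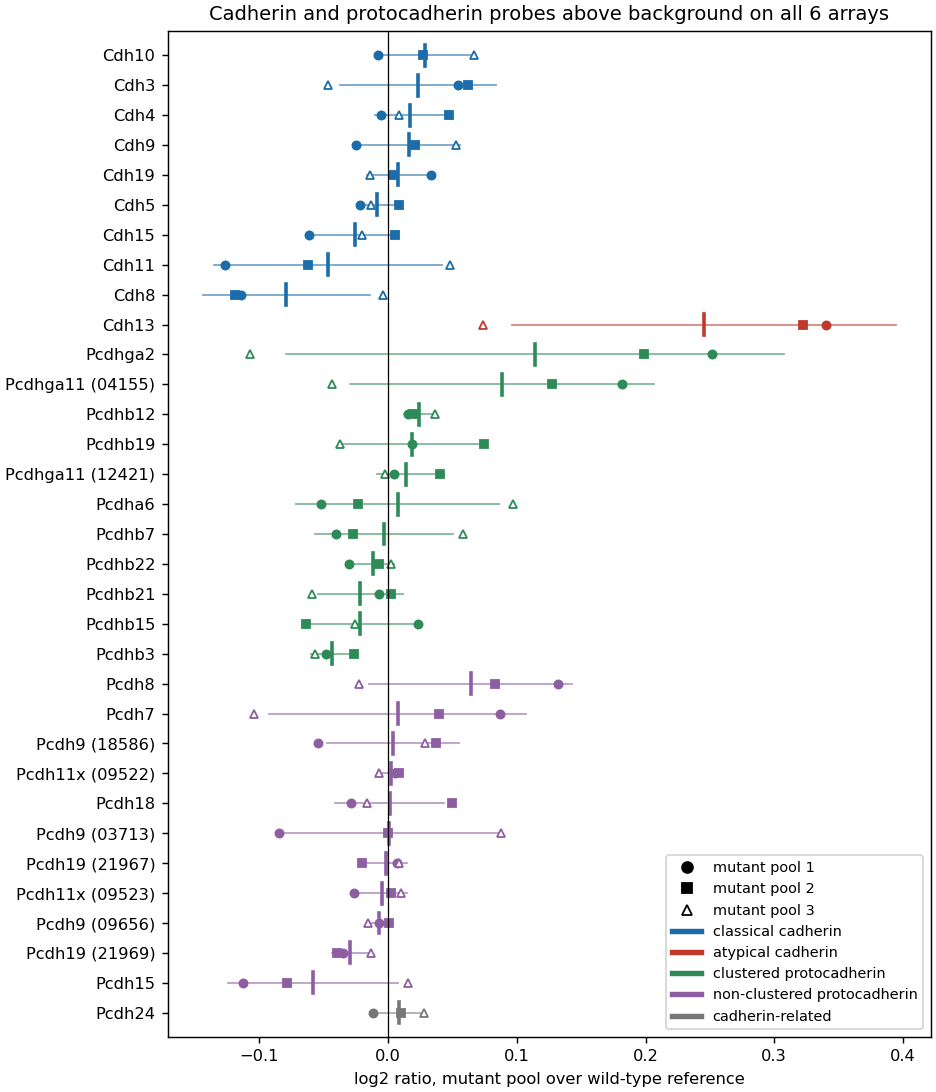
Log2 ratio of mutant over reference (x axis) for each probe above background on all 6 arrays (y axis), grouped by class, with 1 symbol for each of the 3 pools, an upright tick for the mean and a thin line for 1 SD to either side. Cdh13 stands at 0.34, 0.32 and 0.07, Pcdhga2 spans from -0.11 to 0.25, and most other probes lie near 0.

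Cdh13 had the largest mean ratio of all 96 probes. Its log2 level in pools 1, 2 and 3 was 8.39, 8.36 and 8.02 in the mutant channel and 8.05, 8.04 and 7.95 in the reference channel. The log2 ratios were 0.34, 0.32 and 0.07, and all 6 arrays were above 0, from 0.06 to 0.36. The mutant was thus higher in every pool, and pool 3 was the lowest by a wide margin. The mean was 0.25 ± 0.15, or 1.19-fold, with a 95% interval from 0.08 to 0.41 and an adjusted p of 0.885 by limma. With a normexp offset of 0, which shrinks ratios less, it was 0.30, and with each array centred on its median and no loess it was 0.18. Without pool 3 it was 0.33 and passed, at an adjusted p of 0.0106 by limma, in a fit of 2 pools in which 1009 of all probes passed.

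Cdh8 was the lowest of the 96. Its log2 ratios in pools 1, 2 and 3 were -0.11, -0.12 and -0.004, a mean of -0.08 ± 0.07, with a 95% interval from -0.15 to -0.004. All 3 values were below 0, but pool 3 was at the reference level. The mean was -0.03 with the mutant labelled in Cy5 and -0.13 with the mutant labelled in Cy3, and 1 of the 6 arrays, of pool 3, was above 0. Without pool 3 the mean was -0.12 with an adjusted p of 0.0311 by limma, in the same fit in which 1009 of all probes passed. Cdh8 is a type II cadherin found in restricted domains of the embryonic brain.

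Pcdhb3, a clustered protocadherin of the beta array, had log2 ratios of -0.05, -0.03 and -0.06. The pools lay close together, with a mean of -0.04 ± 0.02 and a 95% interval from -0.07 to -0.02, and the mutant was lower on 5 of the 6 arrays. Pcdh19, a delta-2 protocadherin on the X chromosome that in zebrafish works in a complex with N-cadherin, had 3 probes. Its brightest probe stood at -0.03, -0.04 and -0.01, a mean of -0.03 ± 0.01, but at 0.07 with the mutant labelled in Cy5 and at -0.12 with it labelled in Cy3. Its other probe above background on all 6 arrays, a dimmer one, had a mean of -0.002 ± 0.02. The third, above background on no array, had 0.008 ± 0.03. Because the offset shrinks the ratios of dim probes most, these probes may not show so small a deficit. It thus rests on 1 probe and was seen in 1 dye orientation. Cdh19, a type II cadherin known from Schwann cell precursors, had 5 probes, and the 1 at the unadjusted limit, at 0.02 ± 0.003, was above background on no array. The only Cdh19 probe above background stood at 0.03, 0.004 and -0.01.

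**Figure D3:**
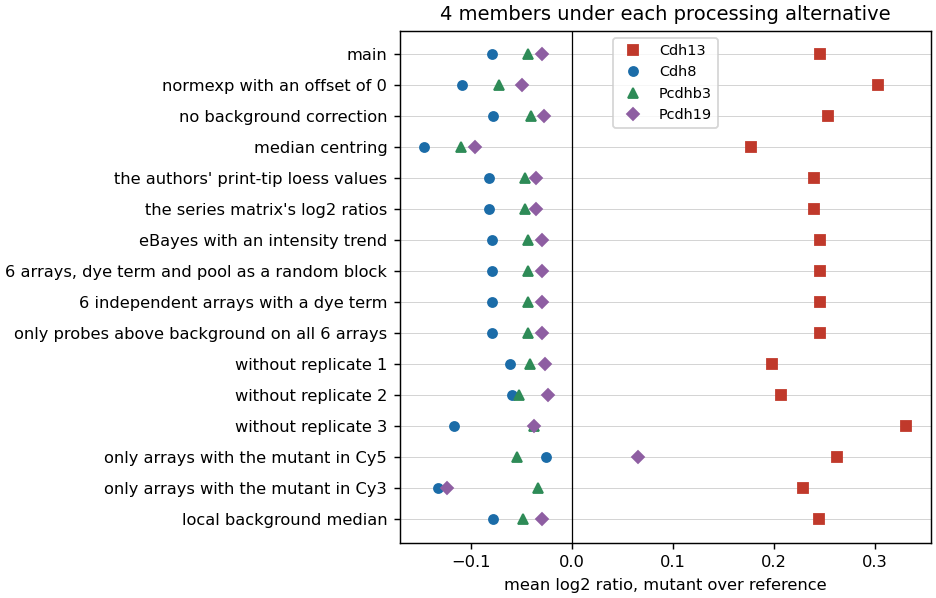
Mean log2 ratio of mutant over reference (x axis) for Cdh13, Cdh8, Pcdhb3 and the brightest Pcdh19 probe with the processing used in the text (main) and with each alternative (y axis), 1 point a gene and setting. Cdh13 stays above 0, from 0.18 with median centring to 0.33 without pool 3, while the Pcdh19 probe is above 0, at 0.07, where only arrays with Cy5-labelled mutant RNA were used.

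Sequence around the start site is given for Cdh8 and Pcdh19, which stood at the unadjusted limit, and for Cdh7, which holds the searched motif. RefSeq promoter windows of GRCm38.p6, 300 bases from 250 before to 50 after a start, were matched by symbol for 22 of the genes, in 25 windows. They were searched for TAATCC on both strands (read as GGATTA on the other), the core to which bicoid-type homeodomains such as that of Pitx3 are known to bind. The motif was in 2 of the 25 windows (8.0%), 1 each of Cdh7 and Cdh26, and in 7.06% of all 32851 windows. The share was close to that of all promoters, and a match is a run of letters and no measured binding. No window was matched for Cdh13, Pcdhb3, Cdh19 or any clustered protocadherin, so these genes were not searched. Each sequence is written 5′ to 3′ on the strand of its gene, with the motif in capitals where it occurs.
Cdh8, chr8:99416422-99416721, minus strand: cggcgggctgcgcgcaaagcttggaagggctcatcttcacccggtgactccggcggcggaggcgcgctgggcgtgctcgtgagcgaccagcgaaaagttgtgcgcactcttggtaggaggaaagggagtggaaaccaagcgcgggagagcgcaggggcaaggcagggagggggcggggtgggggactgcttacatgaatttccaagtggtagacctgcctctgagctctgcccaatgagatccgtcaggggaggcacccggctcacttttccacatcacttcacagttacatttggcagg
Pcdh19, chrX:133688944-133689243, minus strand: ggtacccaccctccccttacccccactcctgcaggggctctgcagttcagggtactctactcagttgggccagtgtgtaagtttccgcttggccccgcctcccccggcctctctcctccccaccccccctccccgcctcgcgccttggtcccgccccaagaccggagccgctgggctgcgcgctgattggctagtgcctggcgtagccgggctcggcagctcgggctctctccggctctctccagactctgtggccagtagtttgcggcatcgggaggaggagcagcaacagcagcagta
Cdh7, chr1:109982650-109982949, plus strand: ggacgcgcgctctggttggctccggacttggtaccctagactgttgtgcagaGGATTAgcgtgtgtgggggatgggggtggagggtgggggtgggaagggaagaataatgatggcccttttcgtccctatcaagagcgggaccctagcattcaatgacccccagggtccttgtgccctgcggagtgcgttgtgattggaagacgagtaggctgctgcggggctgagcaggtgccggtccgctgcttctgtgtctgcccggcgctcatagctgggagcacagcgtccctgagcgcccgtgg
The Cdh8 and Pcdh19 windows hold no match. The Cdh7 window shown holds 1, the other 2 windows of Cdh7 hold 0, and the Cdh26 window holds 2. Cdh7, a type II cadherin, was above background on 2 of 6 arrays, with log2 ratios near 0 in pools 1 and 2 (-0.0002 and -0.002) and 0.05 in pool 3.

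The other classical cadherins above background had 95% intervals that included 0. Cdh11, which is also expressed in mesenchyme and meninges, stood at -0.13, -0.06 and 0.05, a mean of -0.05 ± 0.09. Pools 1 and 2 were below the reference and pool 3 above it. Cdh3 had 0.05, 0.06 and -0.05 (mean 0.02 ± 0.06), with pool 3 again on the other side of 0, but 0.12 with the mutant labelled in Cy5 and -0.07 with it labelled in Cy3. Cdh10, a type II cadherin of the brain, had -0.008, 0.03 and 0.07 (mean 0.03 ± 0.04), and its close relative Cdh9 had -0.03, 0.02 and 0.05 (mean 0.02 ± 0.04). In both, pool 3 was the highest. Cdh10 was at 0.10 in the Cy5-labelled and -0.04 in the Cy3-labelled orientation, and median centring turned Cdh3 to -0.04 and Cdh10 to -0.06, so neither has a settled direction. Cdh4 had -0.005, 0.05 and 0.008 with its only probe above background on all arrays (mean 0.02 ± 0.03), and Cdh15 had -0.06, 0.005 and -0.02 (mean -0.03 ± 0.03).

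Cdh5 encodes VE-cadherin of vessel walls, and its log2 ratios were -0.02, 0.008 and -0.01, a mean of -0.009 ± 0.02 with a 95% interval from -0.04 to 0.02. Of 10 other endothelial markers 9 were measured, 7 were above background on all 6 arrays and 0 were above background on none. Their summed linear level was 883 to 997 in the mutant and 865 to 976 in the reference channel. Pecam1, an adhesion molecule of endothelium, stood at 0.07, 0.05 and 0.02, and Esam, of endothelial junctions, at 0.02, 0.04 and 0.02. Esam was above background on only 4 arrays. Both were higher at an unadjusted p under 0.05 (22.2% of the 9, beside 2.66% of all probes), and 0 were lower. The mean ratios of the 9 ranged from -0.004 to 0.05, with a median of 0.02. Of 6 muscle markers 5 were measured, beside Cdh15: 3 were above background, and Myog and Tnnt1 were above background on no array. Actc1 (an actin of cardiac muscle) stood at 0.08, 0.08 and 0.06. It alone was at an unadjusted p under 0.05 (20% of the list higher, beside 2.66% of all probes). Acta1, also above background, had a mean of -0.04, and the median of the list was -0.02. The summed level of the muscle markers was 726 to 762 in the mutant and 711 to 753 in the reference channel.

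Clustered protocadherins ranged from -0.04 to 0.11 over their 30 probes, and the widest spread between pools was among the gamma genes. Pcdhga2 had 0.25, 0.20 and -0.11, a mean of 0.11 ± 0.19 and a 95% interval from -0.10 to 0.33. The mutant was higher in pools 1 and 2 and lower in pool 3, on both arrays of each. With median centring the mean was 0.04. Without pool 3 it was 0.22 and passed, at an adjusted p of 0.0237 by limma, in the fit in which 1009 of all probes passed. Pcdhga11 had 5 probes, and the brightest stood at 0.18, 0.13 and -0.04 (mean 0.09 ± 0.12), at 0.008 with median centring and 0.15 without pool 3 (adjusted p 0.0341 by limma). The other Pcdhga11 probe above background on all arrays had a mean of 0.01 ± 0.02, so the higher ratios of the brightest probe in pools 1 and 2 were not seen there. Pcdha6 went the other way with its bright probe, at -0.05, -0.02 and 0.10 (mean 0.007 ± 0.08), while its second probe was above background on no array.

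The ratios of the beta genes were small. Pcdhb12 was above 0 in all 3 pools, at 0.02, 0.02 and 0.04, with a 95% interval from -0.002 to 0.05. Pcdhb19 had 0.02, 0.07 and -0.04, and Pcdhb21 had -0.007, 0.002 and -0.06. Neither kept its sign over the pools. Members of a cluster are similar in sequence and the probe sequences were not used here, so a probe may also have bound transcripts of its neighbours.

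Non-clustered protocadherins above background ranged from -0.06 to 0.06. Pcdh8, the delta-2 member also called arcadlin in the rat, had 0.13, 0.08 and -0.02 (mean 0.06 ± 0.08), and -0.006 with median centring. Pcdh15 had the opposite order with its bright probe, at -0.11, -0.08 and 0.02 (mean -0.06 ± 0.07). Without pool 3 it was at -0.10 with an adjusted p of 0.0495 by limma, in the fit in which 1009 of all probes passed. In Pcdh8 and the bright probe of Pcdh15 alike, pools 1 and 2 lay on the same side of the reference and pool 3 on the other. The second Pcdh15 probe, above background on 5 arrays, was below 0 in every pool, at -0.005, -0.02 and -0.02. Pcdh7 had 0.09, 0.04 and -0.10 (mean 0.007 ± 0.10), but the dye mattered more, with -0.20 where the mutant was labelled in Cy5 and 0.22 where it was labelled in Cy3. Pcdh9 had 3 probes above background on all 6 arrays, with means of 0.0008 ± 0.09, -0.007 ± 0.008 and 0.004 ± 0.05, and Pcdh11x had 2, with 0.002 ± 0.008 and -0.005 ± 0.02. The bright probe of Pcdh18 had a mean of 0.001 ± 0.04. Several probes of a gene thus gave means near 0 for Pcdh9 and Pcdh11x alike. The cadherin-related Pcdh24, a brush-border protein also known as Cdhr2, had 1 of 3 probes above background on all arrays, at -0.01, 0.01 and 0.03. In all, 16 of the 60 genes had several probes and 4 had several above background on all arrays.

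Set against each other, the main classes all had median ratios near 0. Over all probes the median ratio was -0.0008 for classical cadherins, -0.004 for clustered and -0.003 for non-clustered protocadherins, beside 0.0002 for all gene probes. The classes ranged from -0.08 to 0.03, from -0.04 to 0.11 and from -0.06 to 0.06. In pools 1, 2 and 3 the medians were -0.01, 0.0009 and -0.001 for classical cadherins, -0.002, -0.007 and -0.006 for clustered and -0.007, -0.008 and -0.008 for non-clustered protocadherins. The 3 values of the classical cadherins enclosed all those of the other classes, while the non-clustered values all lay below the clustered ones. But 17 of 29 classical, 13 of 30 clustered and 6 of 22 non-clustered probes were above background on no array. The offset holds the ratios of such probes near 0, so these medians say little about differences between classes. Over the probes above background the medians were 0.008, 0.007 and 0.0008, beside -0.001 for all such probes, so the order was not kept. By pool they were -0.02, 0.008 and -0.004 for classical and 0.005, 0.002 and -0.03 for clustered probes. For non-clustered ones they were -0.03, 0.002 and -0.007, and the order of the classes changed between pools.

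The size of the ratios, without regard to sign, differed somewhat among probes above background. Its median was 0.02 for classical cadherins, 0.02 for clustered and 0.005 for non-clustered protocadherins, beside 0.02 for all such probes. The median SD over pools was 0.04 for classical, clustered and non-clustered probes alike, and 0.03 for all probes above background. With 1 probe per gene, the brightest, the medians of the signed ratio were -0.005 for classical cadherins, -0.004 for clustered and -0.0009 for non-clustered protocadherins. All were near 0, and the order of the classes again differed from that over all probes.

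Differences between pools were larger than any shared difference from the reference for several members. The range between pools was over 0.2 for 3 of the 33 probes, Cdh13, Pcdhga2 and the brightest of Pcdhga11, or 9.09% beside 7.58% of all probes above background. The median range was 0.0781, beside 0.0626. Across the 33 probes the ratios of pools 1 and 2 had a correlation of 0.90, those of pools 1 and 3 of -0.30 and those of pools 2 and 3 of -0.12, and over all probes above background these were 0.69, -0.26 and -0.23. Without the 6 members of widest range (27 probes left) they were 0.67, -0.27 and -0.11. The pools share 1 reference RNA and probes are not independent replicates, so these are descriptions. In 20 of the 33 (60.6%, beside 69.1% of all probes above background) pools 1 and 2 had the same sign, and in 15 (45.5%, beside 43.3%) pool 3 had the opposite one.

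**Figure D4:**
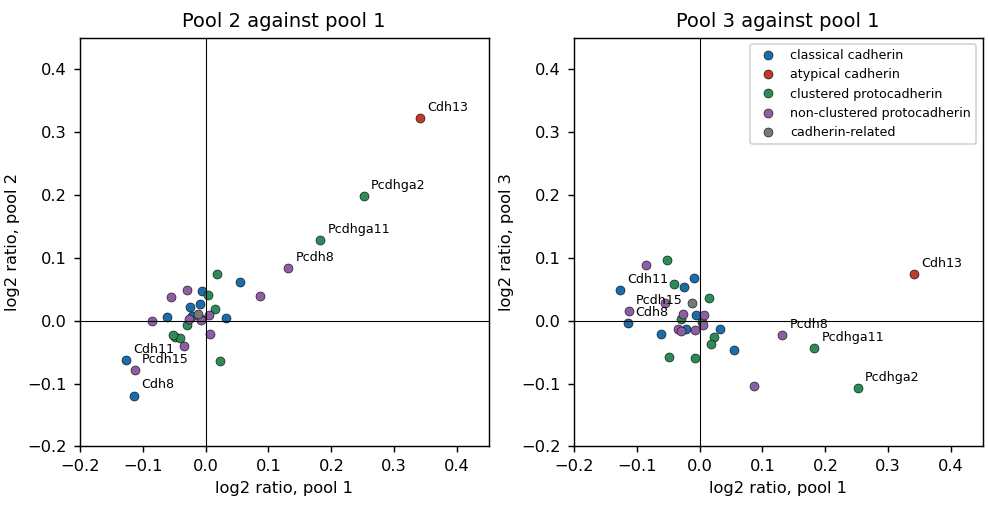
Log2 ratios of the 33 probes above background in pool 2 and in pool 3 (y axes) against those in pool 1 (x axes), with 1 point a probe coloured by class. The ratios of pools 1 and 2 rise together, with a correlation of 0.90, while pool 3 shows no such relation to pool 1, at -0.30.

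Markers of neighbouring brain regions and of progenitors were set beside these ratios. Of 11 markers of diencephalon and hypothalamus 9 were measured, 8 were above background on all 6 arrays and 1 on none. Their median log2 ratio was -0.17, -0.09 and 0.02 in pools 1, 2 and 3, and their summed linear level was 956, 1009 and 1296 in the mutant channel against 1269, 1233 and 1309 in the reference channel. Dlx1, a homeobox gene of forebrain interneurons, stood at -0.88, -0.92 and 0.05, and Lhx9, of the thalamus, at -0.80, -0.42 and -0.12. Pools 1 and 2 were thus lower in this list and pool 3 was near the reference. Of 8 hindbrain markers 6 were measured, 3 were above background on all 6 arrays and 2 on none. The serotonergic genes Tph2 (0.12, 0.19 and 0.10) and Slc6a4 (0.16, 0.25 and 0.09) were higher in all 3 pools at an unadjusted p under 0.05. They were 33.3% of the list, beside 2.66% of all probes. Slc6a4 was above background on 4 arrays in the mutant channel and on none in the reference channel. Gbx2, counted both in this list and in that of diencephalon and hypothalamus, had -0.24, -0.09 and 0.06. The median of the hindbrain list was 0.02. The summed level of the hindbrain markers was 492, 512 and 530 in the mutant channel against 502, 496 and 512 in the reference channel. Among 6 progenitor markers, 5 above background on all 6 arrays, Nes stood at 0.32, 0.26 and -0.09 and Vim at 0.14, 0.11 and -0.06. Like Pcdhga2 and Pcdh8, they were above 0 in pools 1 and 2 and below it in pool 3. So was Mki67 (0.06, 0.05 and -0.01), but not Fabp7 (0.06, -0.06 and -0.09) or Sox2 (-0.10, -0.05 and -0.03). Hes5, above background on no array, was above 0 in every pool. Of all probes above background, 43.3% had pool 3 opposite in sign to pools 1 and 2. The summed progenitor level was 5189, 4561 and 4191 against 4997, 4680 and 4422. The part of these markers in the ratios of Cdh13, Cdh8, Pcdhga2, Pcdh8 and Pcdh15 was not tested. Mmp14, a membrane protease that can cut cell-surface proteins, had 0.22, 0.14 and -0.08, in the same order as Pcdhga2.

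Dye and centring bear on ratios of this size. Between Cy5 and Cy3, 19 of the 96 differed at an adjusted p under 0.05 (19.8%, beside 23.8% of all probes) by limma. The mean of both orientations cancels such a difference where it is equal on both arrays of a pool. Of the 33 probes above background 19 had opposite signs in the 2 dye orientations, as did 66.6% of all probes above background. Median centring in place of loess lowered 26 of the 33, by a median of -0.03 over all 33, and gave 13 the opposite sign. Of all probes above background 88.2% were lower with it, by a median of -0.04.

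Genes that work with cadherins were taken from 3 lists. Of 18 catenins and junction partners 16 were measured, 0 were higher and 1 lower at an unadjusted p under 0.05 (6.25% lower, beside 2.43% of all probes), and their median ratio was -0.001. The 1 was Vezt, a transmembrane protein of the cadherin-catenin complex, at -0.11, -0.03 and -0.06. Ctnnb1, the β-catenin that binds classical cadherin tails, had -0.06, -0.02 and 0.07, with pool 3 on the other side of 0. Of 25 other genes of the cadherin superfamily 21 were measured, 1 was higher and 0 lower (4.76% higher, beside 2.66% of all probes), with a median of 0.007. The 1 was Clstn3, a calsyntenin of the synapse, at 0.12, 0.06 and 0.08, above 0 in every pool with a mean of 0.09 ± 0.03. Dchs1, a large protocadherin that pairs with Fat4, had 0.06, 0.05 and -0.02.

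Among proteases that cut cadherins and proteins that act on the clustered promoters, 13 of 14 were measured, 0 were higher and 2 lower at the unadjusted limit (15.4% lower, beside 2.43% of all probes), with a median of -0.01. Smchd1, a chromatin protein that holds clustered protocadherin genes silent, had -0.07, -0.06 and -0.06, and its pools were nearly equal. Ctcf, which loops promoters of the alpha cluster to their enhancers, had -0.09, -0.06 and -0.009. Of the measured genes of the 3 lists 13, 8 and 10 were above background on all 6 arrays. Among all probes above background 9.93% stood at the unadjusted limit in either direction, beside 5.09% of all probes. The shares of all probes given beside these lists and the marker lists are thus not matched for signal. Over all 3 lists 0 genes passed the adjusted threshold by limma.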

How the data were processed

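Spot and local background intensity in each channel were taken from the deposited raw files. Per the deposited protocol descriptions, slides were scanned on an Agilent scanner and quantified with ImaGene, and the authors normalised the derived intensity values by print-tip loess with a span of 0.4 and no background subtraction. The deposited series matrix holds the log2 ratio mutant over reference, equal to the derived values within 5e-06, so its scale and direction are known. No software version is given in the sources used here.

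From the raw intensity files, background was corrected with normexp (offset 50) in limma 3.58.1 (R 4.3.3), global loess (span 0.3) was fitted within arrays giving controls a weight of 0, and 3223 of 34992 spots, the controls, were then dropped. After turning each ratio to mutant over reference, the 2 arrays of a pool were averaged. The 3 pool values were fitted with lmFit and eBayes (residual degrees of freedom 2, prior 2.18), and p-values against 0 were adjusted by Benjamini-Hochberg for 31769 probes. The offset shrinks ratios, most of all those of dim probes. Summed marker levels used 1 probe per gene, the brightest, on a linear scale. The steps were tested on simulated data. The number of arrays limits the precision. Nothing says which dissection gave which pool, so the spread between pools may be partly technical.

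Symbols came from the platform table, which named 26000 probes, of which 2865 were updated through RefSeq GRCm38.p6 for the gene lists. The arrays name no genome build, and only promoter windows carry coordinates. The members, the classes and the gene lists were chosen with earlier results of these data known. Named were members at an unadjusted p under 0.05, the 12 lowest p among probes above background, the 3 largest ratios of each class, the 6 widest ranges between pools, all probes of such genes, and each classical cadherin above background. In other lists up to 4 members with the lowest p could be named, and Ctnnb1, Dchs1, Nes, Vim, Fabp7, Mki67, Hes5, En1, Foxa2, Lmx1b, Nr4a2, Th, Pcdhb19, Cdh1, Cdh2 and Cdh7 were added after their values were seen. Alternatives covered background correction, normalisation, spread model, replicate unit, dim probes, dye orientation, the background limit and leaving out each pool. The median of the local background was added after the data were seen.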

Additional observations from a re-analysis of the deposited data

How the results depend on the processing

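Over all gene probes 0 passed the adjusted threshold by limma in the fit used, where 1617 stood at an unadjusted p under 0.05, and the count was 1 with median centring, 11 with an intensity trend, 13 with the pool as a random block, 16 with 6 independent arrays, 3 with only the mutant-Cy5 arrays, 166 with only the mutant-Cy3 arrays, and 0 to 1009 when a pool was left out. Of the cadherin and protocadherin probes 0 passed with each setting except on leaving out a pool (0 to 5). The 5, without pool 3, were Cdh13, Cdh8, Pcdhga2 and the brightest probes of Pcdh15 and Pcdhga11. At an unadjusted p under 0.05 the 5 probes became 8 with the random block, 9 with independent arrays, 3 in a fit of probes above background, 3 with the local background median, 23 with mutant-Cy5 arrays, 21 with mutant-Cy3 arrays and 0 to 15 on leaving out a pool. The share of all probes at this limit is not given for these settings, so the counts are no result about the members. With arrays of 1 dye orientation a dye difference does not cancel and cannot be told apart from the mutant. Above background on all arrays stood 26 instead of 33 with 3 SDs.

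The median of classical cadherins was -0.01301 with an offset of 0, 0.007579 over probes above background and -0.01147 with mutant-Cy5 arrays. For clustered protocadherins it was -0.02639 with an offset of 0, -0.007231 without background correction, 0.001997 with median centring, 0.007347 over probes above background, and 0.007552 and -0.01292 with mutant-Cy5 and mutant-Cy3 arrays. For non-clustered protocadherins these were -0.01529, -0.0003394, -0.01011, 0.0008283, 0.01328 and -0.03169, with -0.00487 for the authors' print-tip loess values and for the series matrix, -0.004717 with the local background median, -0.0009112 with 1 probe per gene and -0.008327 to -0.005346 on leaving out a pool. The brightest Pcdh19 probe was above 0, at 0.06503, with mutant-Cy5 arrays. Of 557 recomputed ratios of 38 named probes, 489 stayed within the spread between pools or kept their side of the threshold, 62 moved by more than that spread, 5 passed newly (the 5 without pool 3) and 1, this Pcdh19 value, turned a probe at the unadjusted limit. Signs changed for 70 of the 557, by less than the spread in 46 and by more in 23 that were not at that limit, such as Cdh10 and Cdh3 with median centring (-0.06 and -0.04). With median centring Cdh8, Pcdhb3 and the brightest Pcdh19 probe stood at -0.15, -0.11 and -0.10. The cause was not tested. Dim probes are the least certain: the dim Cdh19 probe was at 0.40 with an offset of 0. No paired analysis was possible because all mutant pools form 1 group against a shared reference.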
